A study of Mus musculus with 7 samples.

Results

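Transcripts of 49 lysosome genes were examined in alveolar macrophages, phagocytes that live in the air spaces of the lung, with and without intact Suz12. The genes were taken by symbol, with earlier results of these data known, from the 27179 genes of the count table. All 49 were found there. They fell into 12 cathepsins and legumain, 17 other hydrolases and their activator proteins, 6 membrane proteins and transcription factors, and 14 subunits and accessory proteins of the vacuolar proton pump (V-ATPase).

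The cells came from chimeric mice: lethally irradiated C57BL/6-Ly5.1 recipients received marrow mixtures in which 90% of the cells were wild type (WT) Ly5.2 or Suz12 cKO Ly5.2 and 10% were wt Ly5.1. Suz12 is a core subunit of polycomb repressive complex PRC2, which methylates histone H3 at silenced genes, and the comparison asks how the macrophage transcriptome differs without it. Alveolar macrophages were sorted from lung by flow cytometry and gave 4 WT and 3 Suz12 cKO libraries of polyadenylated RNA, stated to be biological replicates. The sources used here do not give the promoter that drove the Cre, the deleted exons, the age of the mice or any gating on Ly5. Both groups thus shared irradiation, reconstitution and the wt Ly5.1 competitor marrow.

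The lysosome degrades what a macrophage takes up, which in the alveolus includes surfactant and inhaled particles. Its lumen is kept acidic by the V-ATPase, in which a cytosolic V1 sector splits ATP and a membrane V0 sector carries protons. Cathepsins are the acid proteases of the lumen, mostly of the cysteine type with Ctsd and Ctse of the aspartic type; legumain processes several of them, and glycosidases, sulfatases, lipases and saposins handle sugars and lipids. The transcription factors Tfeb, Tfe3 and Mitf bind boxes with the core letters CACGTG in the promoters of many lysosome genes.

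Promoter windows are printed for the 4 genes that differed between the genotypes, and for Ctsd and Lamp1, the most abundant cathepsin and membrane protein transcripts. Each window runs from 250 bases before to 50 bases after the annotated start in RefSeq's GRCm38.p6, 5′ to 3′ along the gene's strand, and capitals mark CACGTG, or TCACGTGA where the longer box was present.
Ctsd (chr7:142387778-142388077, minus strand): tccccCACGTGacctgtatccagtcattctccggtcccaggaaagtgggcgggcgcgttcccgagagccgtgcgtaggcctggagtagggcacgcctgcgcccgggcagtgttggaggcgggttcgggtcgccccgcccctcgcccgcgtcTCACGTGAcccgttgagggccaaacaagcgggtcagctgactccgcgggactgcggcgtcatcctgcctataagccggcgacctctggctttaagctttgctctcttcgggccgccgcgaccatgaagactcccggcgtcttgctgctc
Ctsf (chr19:4854915-4855214, plus strand): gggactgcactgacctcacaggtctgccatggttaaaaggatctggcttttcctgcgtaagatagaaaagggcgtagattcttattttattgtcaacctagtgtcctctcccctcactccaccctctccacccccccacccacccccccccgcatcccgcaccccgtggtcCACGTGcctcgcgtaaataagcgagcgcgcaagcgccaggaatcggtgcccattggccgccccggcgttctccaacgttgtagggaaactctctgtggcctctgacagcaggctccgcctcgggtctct
Gaa (chr11:119267713-119268012, plus strand): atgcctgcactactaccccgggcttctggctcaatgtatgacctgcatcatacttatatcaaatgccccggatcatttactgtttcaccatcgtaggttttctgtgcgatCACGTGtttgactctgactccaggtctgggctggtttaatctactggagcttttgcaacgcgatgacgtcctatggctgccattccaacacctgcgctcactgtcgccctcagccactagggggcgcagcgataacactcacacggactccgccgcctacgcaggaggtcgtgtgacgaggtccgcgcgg
Smpd1 (chr7:105554110-105554409, plus strand): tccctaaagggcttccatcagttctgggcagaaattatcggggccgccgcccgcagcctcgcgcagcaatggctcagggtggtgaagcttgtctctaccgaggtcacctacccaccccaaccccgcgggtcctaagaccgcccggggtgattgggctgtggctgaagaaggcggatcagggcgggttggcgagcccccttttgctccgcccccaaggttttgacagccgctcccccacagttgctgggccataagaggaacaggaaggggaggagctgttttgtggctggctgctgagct
Psap (chr10:60277378-60277677, plus strand): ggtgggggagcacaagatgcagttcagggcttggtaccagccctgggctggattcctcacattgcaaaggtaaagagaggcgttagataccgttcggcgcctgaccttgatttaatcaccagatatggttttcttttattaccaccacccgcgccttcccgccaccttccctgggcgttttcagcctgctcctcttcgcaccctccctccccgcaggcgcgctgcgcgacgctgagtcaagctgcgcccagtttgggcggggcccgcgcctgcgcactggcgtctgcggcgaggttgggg
Lamp1 (chr8:13158911-13159210, plus strand): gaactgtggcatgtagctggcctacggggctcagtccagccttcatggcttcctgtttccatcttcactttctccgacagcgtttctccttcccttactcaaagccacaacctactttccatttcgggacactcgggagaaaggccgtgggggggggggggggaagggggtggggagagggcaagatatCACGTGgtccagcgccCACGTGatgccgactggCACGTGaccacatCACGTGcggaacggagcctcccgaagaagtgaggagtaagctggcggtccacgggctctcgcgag

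Of these 6 windows, 4 held a box. Lamp1 had 4 boxes and Ctsd had 2, of which 1 was the longer TCACGTGA. Ctsf had its box at position -79 and Gaa at -140, counted back from the annotated start to the first base of the box; Smpd1 and Psap had none in these letters. A window was given for 41 of the 49 members; a gene was counted where any of its windows held the letters. CACGTG, which reads the same on both strands, was in 14 of the 41 (34.1%). The same letters were in 2187 of 27025 genes with a window (8.09%) and in 1238 of 10818 such genes among those tested here (11.4%). TCACGTGA, also the same on both strands and containing CACGTG, was in 6 members (14.6%), against 304 of all genes with a window (1.12%) and 227 of the tested ones (2.1%). By class, CACGTG was in 5 of 9 cathepsin or legumain genes with a window and 4 of 16 hydrolase genes. It was in 2 of 6 membrane and regulator genes and 3 of 10 V-ATPase genes. CG pairs, which CACGTG contains, numbered a median of 16 per member, 8 over all genes and 21 over tested genes. Each gene counted by its window with the most pairs. A match describes letters in the window and is not a measured binding site.

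The libraries held 48104653 to 79281431 counts each. Suz12 itself (Entrez 52615, chromosome 11, 79993106 to 80034123) was at 22.1, 23.6 and 15.1 CPM (counts per 1e6, scaled to TMM library sizes) in the Suz12 cKO libraries and at 56.5, 56.3, 73.9 and 68.9 CPM in the WT libraries. Every Suz12 cKO library lay below every WT library, with a log2 fold change of -1.65 (SE 0.18, adjusted p = 0.00134; adjusted p here always comes from edgeR's quasi-likelihood test with Benjamini-Hochberg adjustment over 14436 genes, and a gene is called when it is under 0.05). Suz12 reads thus remained in every Suz12 cKO library. Whether they came from exons kept after the deletion or from cells with intact Suz12 was not tested. Alveolar macrophage markers summed to 68688 to 72756 CPM in Suz12 cKO and 58005 to 73142 CPM for WT. All 17 of them were tested, and 7 were called higher and 1 lower. Of all 14436 tested genes, 6.28% were called higher and 4.02% lower. Siglecf and Itgax were detected in every library. Haemoglobin transcripts, as CPM of the unscaled library total, summed to 39.7 CPM in WT replicate 2 and to 146 and 108 CPM in replicates 1 and 2 of Suz12 cKO, while 4 libraries had only 1.94 to 3.72 CPM. Sftpc, which encodes surfactant protein C in alveolar type 2 cells, was at 4.53 and 9.08 CPM in replicates 1 and 2 of Suz12 cKO. It was at 10.6 CPM in WT replicate 2 and at 0 or 0.0412 CPM elsewhere. Of the 11 alveolar type 2 markers, 10 were tested and 1 was called higher. Their median log2 fold change was 0.52, with 7 above 0 and 3 below. They summed to 5860, 4898 and 5017 CPM in these libraries, in that order, and to 5262 to 6661 CPM elsewhere. Lyz1 alone, 1 of these markers, was at 4618 to 6449 CPM. The sum therefore could not show a rise of the size seen in Sftpc. Results are also given within the libraries high and low in haemoglobin RNA, a split known from an earlier look at these data. The low set holds 1 Suz12 cKO library and the high set 1 WT library. The fit assumes a lone library to vary like those of the other genotype. Of 10 neutrophil markers, Ly6g and Camp had no count in any library, 6 were tested and 4 of these were called higher. The list summed to 186 to 253 CPM in Suz12 cKO and 113 to 139 CPM for WT. Monocyte and interstitial macrophage markers summed to 1473, 1548 and 1124 CPM in Suz12 cKO (3 of 14 called higher). In WT, in order of replicate, they summed to 622, 1739.6, 748 and 702 CPM. The 8 fibroblast markers summed to 32.4, 42.2 and 34.4 CPM in Suz12 cKO (1 of 5 tested called higher). Their WT sums were 2.39, 22.7, 0.272 and 0.165 CPM. For both lists the highest WT sum was in replicate 2, the WT library high in haemoglobin RNA. The part of these transcripts in the lysosome results was not tested. In bulk libraries, fewer cells of a type and less RNA per cell cannot be told apart.

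Lysosome transcripts were abundant and, as a group, differed little between the genotypes. The 49 genes took 3.57%, 3.68% and 4.18% of all counts in the Suz12 cKO libraries and 4.00%, 3.53%, 4.05% and 3.98% in the WT libraries, so the groups overlapped. All 49 passed the low-count filter; 3 were called higher (Ctsf, Gaa and Smpd1), 1 was called lower (Psap), and 45 were not called. Among all 14436 tested genes, 906 (6.28%) were called higher, 580 (4.02%) lower and 1486 (10.3%) either way. Among the 7080 genes with a mean of at least 20 CPM, the level of 48 members (all but Ctse), the shares were 5.17% higher and 5.93% lower. The members' shares were near this background. Their median log2 fold change was -0.09, against 0.00 over all tested genes, with 16 members above 0 and 33 below. Over all tested genes, 7278 were above 0 and 7158 below. A fold of at least 1.5 in either direction was reached by 2 of 49 members (4.08%; Ctsf and Ctsk), against 28% of all tested genes and 8.56% of those with at least 20 CPM.

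The genotype ranges did not overlap for 17 members, 7 higher and 10 lower in Suz12 cKO. Over all tested genes the ranges did not overlap for 25.5%, 14.1% higher and 11.5% lower. An unadjusted p under 0.05 was found for 18 members and for 24.5% of all tested genes.

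**Figure D1:**
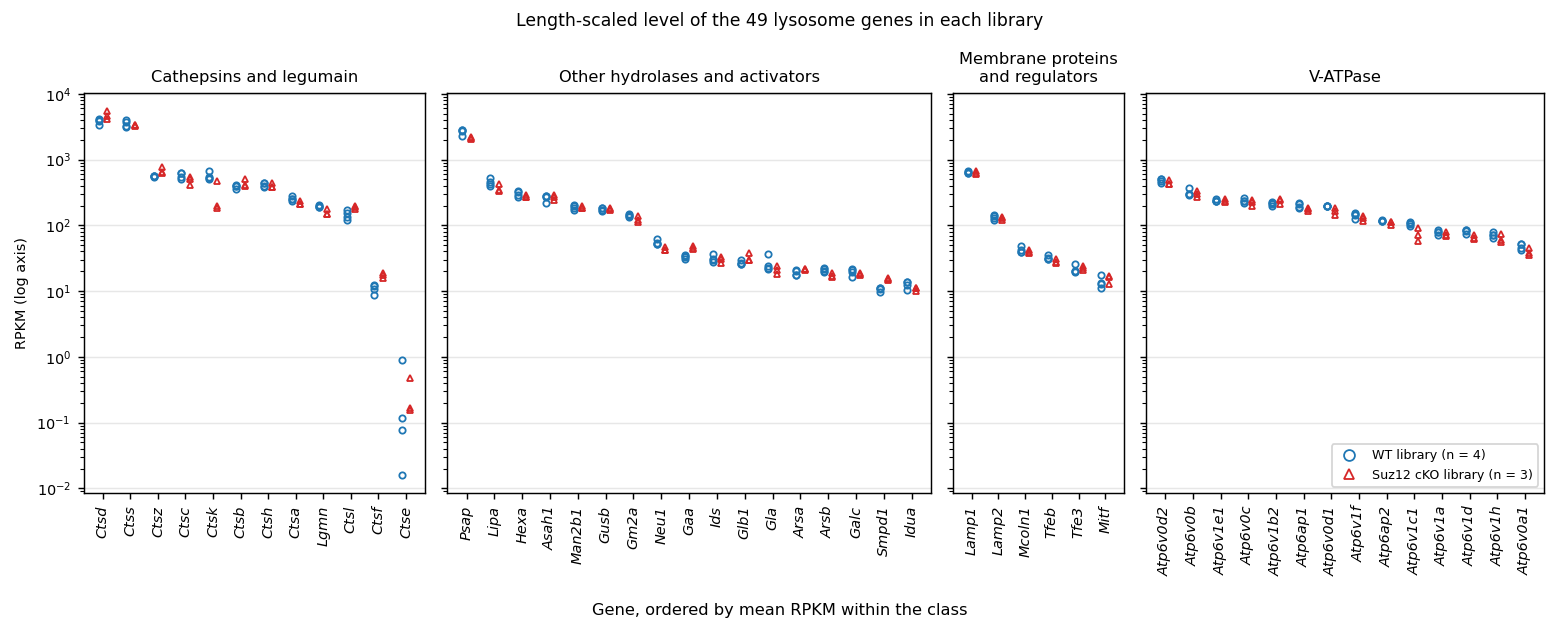
Level of each of the 49 genes in each library, as CPM per kilobase of exon (RPKM) on a log axis, by class and ordered by mean level. WT libraries (n = 4) are blue circles and Suz12 cKO libraries (n = 3) red triangles; Ctsd, Ctss and Psap lead their classes, and Ctse lies below 1 RPKM in every library.

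**Figure D2:**
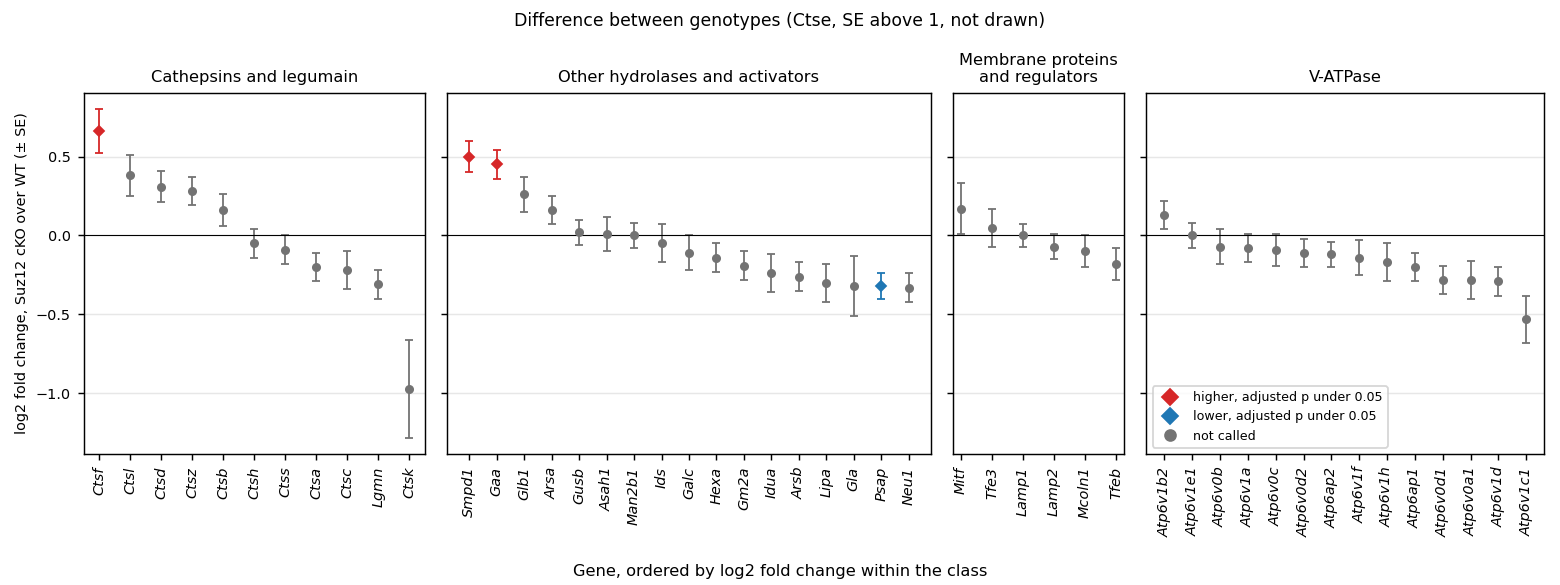
log2 fold change, Suz12 cKO over WT, with its SE for 48 members (Ctse, SE 1.33, is left out), ordered within each class. Coloured diamonds are the 4 called genes (red higher, blue lower) and grey circles the uncalled ones; 12 of the 14 V-ATPase genes lie below 0.

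Among the cathepsins, Ctsf rose in Suz12 cKO macrophages and the other 11 genes of the class did not pass the test. Levels of different genes are compared per exon length, as RPKM. By that measure the class was led by Ctsd, the main aspartic protease of the lysosome, at a mean of 4215 RPKM over the 7 libraries, and by Ctss, a cysteine protease that trims the invariant chain of MHC class II, at 3433 RPKM. Summed over the class, RPKM was 10203, 10560.5 and 12050.1 in Suz12 cKO and 10402, 9663, 11117 and 10609.8 in WT, 10938 ± 979.5 (SD, n = 3) against 10448 ± 603 (n = 4). The summed level overlapped between the genotypes.

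Ctsf (chromosome 19, 4855165 to 4860918), cathepsin F, a cysteine protease, was at 37.7, 31.2 and 34.6 CPM for Suz12 cKO and at 24.2, 21.6, 17.5 and 23.9 CPM for WT. All 3 Suz12 cKO libraries lay above all 4 WT libraries. The means were 34.5 ± 3.25 (SD, n = 3) and 21.8 ± 3.09 CPM (n = 4), a log2 fold change of 0.66 (SE 0.14, adjusted p = 0.0205). With a mean of 13.8 RPKM it was a minor transcript of the class. The call was lost without Suz12 cKO replicate 1 (adjusted p = 0.0821) or 3 (0.0592). Within the libraries low and high in haemoglobin RNA the log2 fold change was 0.65 (adjusted p = 0.12) and 0.68 (0.109).

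Ctsd (chromosome 7, 142375910 to 142387827), whose promoter window carries both kinds of box, was at 8111, 8981 and 10721 CPM for Suz12 cKO and at 8063, 6543, 7738 and 7494 CPM for WT. The ranges did not overlap, with Suz12 cKO replicate 1 just above WT replicate 1. The log2 fold change of 0.31 (SE 0.10) did not pass the test (adjusted p = 0.0913). It was 0.45 in the low haemoglobin set (adjusted p = 0.0279) and 0.39 in the high set (0.0424), each with a lone library on one side, and 0.43 with a term for the set (0.00478). Over the 16 alternatives it ran from 0.18 to 0.45, with an adjusted p of up to 0.284, and 4 gave a call. Within the summed RPKM of the class, Ctsd took 40.7%, 43.5% and 45.5% in Suz12 cKO and 39.7%, 34.7%, 35.6% and 36.1% in WT. Its share was thus higher in every Suz12 cKO library than in any WT library, 43.2% ± 2.44 (SD, n = 3) against 36.5% ± 2.19 (n = 4).

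Ctss was at 4542, 4417 and 4504 CPM for Suz12 cKO and at 4187, 4349.7, 5433 and 5129 CPM for WT. The Suz12 cKO values lay inside the WT range (log2 fold change -0.09, SE 0.09, adjusted p = 0.636). Its share of the class was 30.4% ± 2.66 (SD, n = 3) in Suz12 cKO and 33.7% ± 2.93 (n = 4) in WT.

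**Figure D3:**
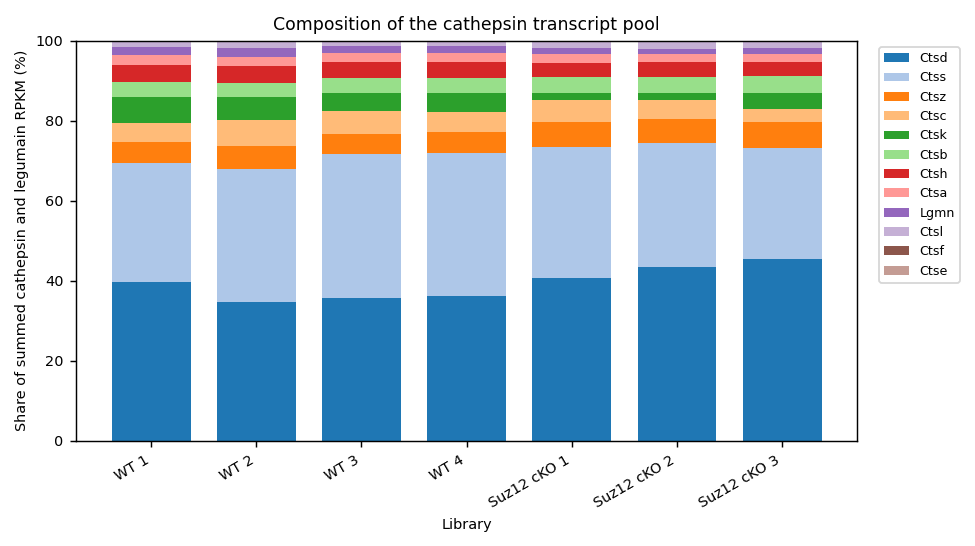
Share of each gene in the summed RPKM of the 12 cathepsins and legumain, as a stacked bar for each library (percent). Ctsd is the lowest, dark blue segment, 40.7% to 45.5% in Suz12 cKO and 34.7% to 39.7% in WT; Ctsk, in green, is narrowest in Suz12 cKO replicates 1 and 2.

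Ctsk (chromosome 3, 95499210 to 95509387), cathepsin K, a collagen-degrading protease best known from osteoclasts, was at 287, 275 and 705 CPM for Suz12 cKO and at 985, 812, 769 and 748 CPM for WT. All Suz12 cKO libraries were lower than all WT libraries, but replicate 3 lay close to the WT range while replicates 1 and 2 were far below it. The log2 fold change of -0.97 (SE 0.31) did not pass the test (adjusted p = 0.0886). Without Suz12 cKO replicate 3 it was -1.57 (adjusted p = 0.00232). Within the libraries high in haemoglobin RNA it was -1.53 (adjusted p = 0.000404, against WT replicate 2 alone), and within the low ones -0.25 (0.399, for Suz12 cKO replicate 3 alone). Within Suz12 cKO, the libraries low in Ctsk were those high in haemoglobin RNA, whereas WT replicate 2, with 39.7 CPM of haemoglobin RNA, had 812 CPM of Ctsk; the part of other cells in it was not tested.

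Of the other cathepsins, Ctsl and Ctsz, both cysteine proteases, were higher in every Suz12 cKO library than in any WT library without passing the test. Ctsl was at 351 to 383 CPM against 236 to 341 CPM (log2 fold change 0.38, adjusted p = 0.102) and passed in 2 of 16 alternatives, without WT replicate 2 (0.46) among them, while others gave as little as 0.10. Ctsz was at 873 to 1087 CPM against 762 to 789.6 CPM (0.28, 0.0863) and passed in 3 of 16, the libraries low in haemoglobin RNA (0.47) among them, with a low of 0.16. Legumain (Lgmn), an asparagine-specific protease that matures other cathepsins, was at 275 to 337 CPM in Suz12 cKO and 360.0 to 379 CPM for WT (-0.31, 0.076), and passed in 2 of 16, without Suz12 cKO replicate 3 (-0.42) among them, the smallest value being -0.13. The ranges of Ctsa, Ctsb, Ctsc and Ctsh overlapped, with log2 fold changes of -0.20, 0.16, -0.22 and -0.05. Ctse, the second aspartic protease, was barely detected, at up to 1.01 CPM against 0.0341 to 1.89 CPM, and its fold change had an SE of 1.33. Reads at Ctsa, Ctsb and Ctsz can be shared with overlapping annotated genes (Neurl2 and Pltp, Fdft1, and Nelfcd), since the sources used here do not give the strand setting of the counting.

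Among the other hydrolases and activators, Gaa and Smpd1 rose, Psap fell, and 14 of the 17 genes were not called. Gaa (chromosome 11, 119267963 to 119285458), the acid alpha-glucosidase that breaks down glycogen, was at 167, 169 and 182 CPM for Suz12 cKO and at 128, 116, 127 and 135 CPM for WT. The groups were well apart, 173 ± 8.47 (SD, n = 3) against 127 ± 7.77 CPM (n = 4), with a log2 fold change of 0.45 (SE 0.09, adjusted p = 0.0142). The call was lost without Suz12 cKO replicate 2 (adjusted p = 0.0516) or 3 (0.0573). Within the haemoglobin sets the log2 fold change was 0.47 (low, adjusted p = 0.0652) and 0.53 (high, 0.0565).

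Smpd1 (chromosome 7, 105554360 to 105558389), the acid sphingomyelinase that turns sphingomyelin into ceramide, was at 38.1, 36.3 and 35.2 CPM for Suz12 cKO and at 26.5, 23.5, 26.0 and 27.1 CPM for WT. Again no Suz12 cKO library reached down to the WT range. The means were 36.5 ± 1.45 (SD, n = 3) and 25.8 ± 1.56 CPM (n = 4), with a log2 fold change of 0.50 (SE 0.10, adjusted p = 0.0155). The call was lost without Suz12 cKO replicate 1 (adjusted p = 0.066) or 2 (0.06), or without WT replicate 3 (0.0521). Within the haemoglobin sets the log2 fold change was 0.39 (low, adjusted p = 0.184) and 0.66 (high, 0.0852).

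Psap (chromosome 10, 60277628 to 60302600) encodes prosaposin, the precursor of the saposins that present sphingolipids to their hydrolases, and was the most abundant transcript of the class, at a mean of 2426 RPKM. It stood at 5751, 5554 and 6072 CPM for Suz12 cKO and at 7329, 6199, 7687 and 7789 CPM for WT. The ranges were separated by a narrow gap between Suz12 cKO replicate 3 and WT replicate 2. The log2 fold change was -0.32 (SE 0.08, adjusted p = 0.0417), the weakest of the 4 calls: it was lost when 1 library was left out, except for WT replicate 2, without which it was -0.40 (adjusted p = 0.00512). Within the libraries high in haemoglobin RNA, which include WT replicate 2, it was -0.13 (adjusted p = 0.43).

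Because Psap made up 56.2% ± 0.379 (SD, n = 3) of the class's summed RPKM in Suz12 cKO and 59.8% ± 2.24 (n = 4) in WT, the sum followed it. The sum was 3718, 3635 and 3968 RPKM in Suz12 cKO and 4528, 3977, 4666 and 4566 RPKM in WT. The ranges did not overlap, 3773 ± 173 (SD, n = 3) against 4434 ± 310.4 (n = 4), but WT replicate 2 lay just above Suz12 cKO replicate 3.

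**Figure D4:**
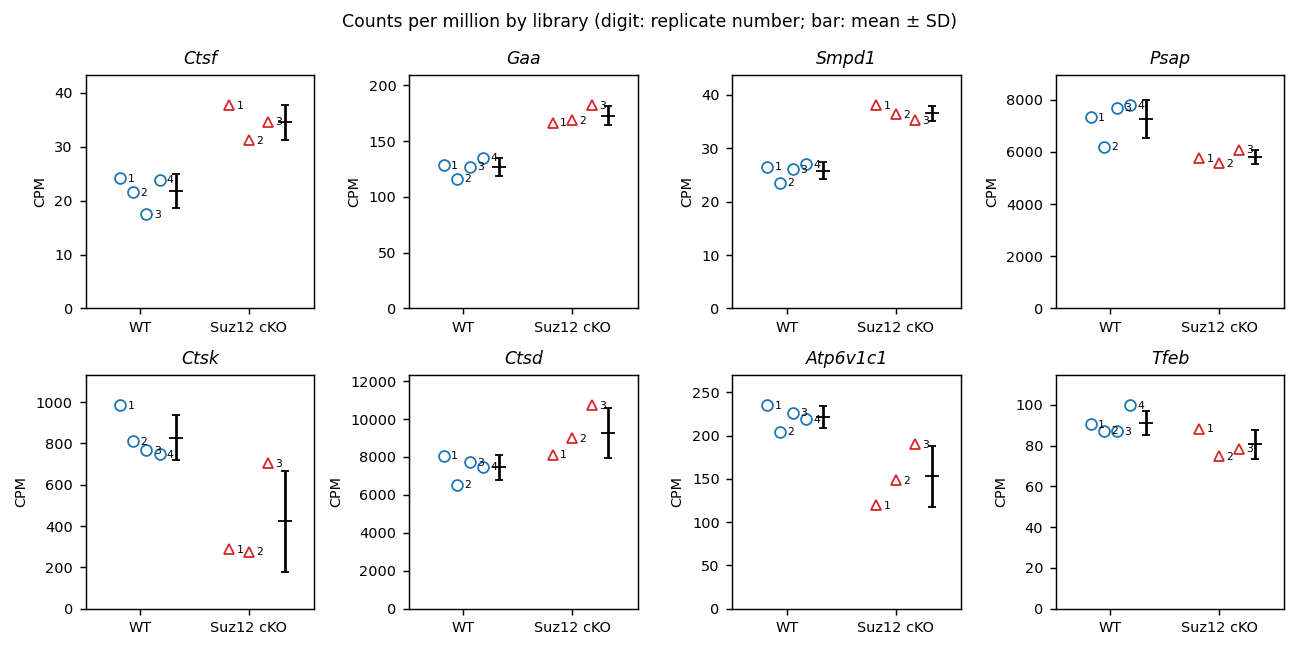
CPM in each library for the 4 called genes (Ctsf, Gaa, Smpd1, Psap) and for Ctsk, Ctsd, Atp6v1c1 and Tfeb, with WT as blue circles, Suz12 cKO as red triangles, the replicate number beside each point and mean ± SD as a bar (n = 4 and 3). Suz12 cKO replicate 3 lies nearest to WT for Ctsk and Atp6v1c1, and the Tfeb groups overlap.

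Lipa, the acid lipase that frees cholesterol and fatty acids, was next in level at a mean of 417 RPKM. It was at 1006, 997 and 1279.7 CPM for Suz12 cKO and at 1579, 1269, 1356 and 1194 CPM for WT. The groups overlapped (log2 fold change -0.30, SE 0.12, adjusted p = 0.172).

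Neu1, a sialidase, and Arsb, a sulfatase of dermatan and chondroitin sulfate, were lower in every Suz12 cKO library than in any WT library but did not pass the test. Neu1 was at 161 to 178 CPM against 199.7 to 235 CPM (log2 fold change -0.33, adjusted p = 0.0607), and passed in 2 of 16 alternatives, without WT replicate 2 (-0.35) among them. Arsb was at 66.1 to 75.2 CPM against 76.9 to 90.9 CPM (-0.26, 0.123). Glb1, the lysosomal beta-galactosidase, was higher in each Suz12 cKO library, at 69.6 to 88.8 CPM against 60.8 to 69.3 CPM (0.26, 0.183), and its reads can be shared with the overlapping Tmppe.

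The remaining 10 hydrolases and activators had overlapping ranges. Gla, the alpha-galactosidase, had the largest uncalled difference among them, a log2 fold change of -0.32 with an SE of 0.19, and WT replicate 2 alone was at 111 CPM. Hexa (a beta-hexosaminidase subunit) and Gm2a (its GM2 ganglioside activator) were at -0.14 and -0.19, and Idua (an iduronidase), Galc (a galactosylceramidase) and Ids (an iduronate sulfatase) at -0.24, -0.11 and -0.05. Arsa (arylsulfatase A), Gusb (a beta-glucuronidase), Asah1 (acid ceramidase) and Man2b1 (an alpha-mannosidase) were at 0.16, 0.02, 0.01 and 0.00. For Gusb, Asah1 and Man2b1 the SE was between 0.08 and 0.11. Reads at Hexa, Asah1, Arsa and Idua can likewise be shared with overlapping genes.

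Lysosomal membrane proteins and the transcription factors of lysosome genes did not differ by the test, and the ranges of all 6 overlapped. Lamp1, a heavily glycosylated protein that lines the lysosomal membrane and the gene with 4 CACGTG boxes, was at 1426, 1374 and 1526 CPM for Suz12 cKO and at 1390.5, 1399, 1484 and 1503 CPM for WT. Its groups coincided (log2 fold change 0.00, SE 0.07, adjusted p = 0.991). Lamp2, the receptor of chaperone-mediated autophagy in one isoform, was at 491, 525 and 542 CPM against 562, 537, 587 and 499 CPM (-0.07, SE 0.08). Mcoln1, a calcium channel of the lysosomal membrane, was at 76.2 to 83.8 CPM against 78.4 to 96.1 CPM (-0.10, SE 0.10).

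Tfeb was at 88.4, 74.9 and 78.5 CPM for Suz12 cKO and at 90.5, 87.3, 87.1 and 99.8 CPM for WT (log2 fold change -0.18, SE 0.10, adjusted p = 0.307). Tfe3 was at 67.5, 73.5 and 78.0 CPM against 65.3, 65.0, 66.2 and 85.1 CPM (0.05, SE 0.12, adjusted p = 0.854). Mitf was at 86.7, 67.4 and 84.6 CPM against 57.8, 89.9, 68.4 and 66.5 CPM (0.17, SE 0.16, adjusted p = 0.578). None of these 3 factors passed the test, and the ranges of the genotypes overlapped for each; the activity of such factors, which is known to be set largely by their location in the cell, was not measured. The 6 genes summed to 872 ± 38.2 RPKM (SD, n = 3) in Suz12 cKO and 883 ± 25.1 RPKM (n = 4) in WT.

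V-ATPase transcripts lay mostly slightly below the WT level, and none of the 14 was called. Log2 fold changes were below 0 for 12 genes and not above 0.13 for any, with a median of -0.13, against 0.00 over all tested genes. Of all 14436 tested genes, 7158 were below 0. The 14 genes were measured in the same 7 libraries, so their directions are not independent. With RLE size factors or library totals as the scaling the median was -0.12. Ranges did not overlap for 5 of the 14 genes, each lower in Suz12 cKO, against 11.5% of all tested genes in that direction. Summed RPKM was 2206, 2240.3 and 2549 in Suz12 cKO and 2583, 2497, 2536 and 2494 in WT. Suz12 cKO replicates 1 and 2 lay below the WT libraries and replicate 3 among them, so the groups overlapped, 2332 ± 189 (SD, n = 3) against 2528 ± 41.6 (n = 4).

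Atp6v1c1 (chromosome 15, 38661904 to 38692444), the C subunit of the V1 sector, had the largest difference of the class. It was at 119.7, 148 and 190.5 CPM for Suz12 cKO and at 235, 205, 226 and 219 CPM for WT. Each Suz12 cKO library lay below the WT range, replicate 3 nearest to it, with a log2 fold change of -0.53 (SE 0.15) that did not pass the test (adjusted p = 0.0553). It passed in 4 of 16 alternatives, among them without Suz12 cKO replicate 3 (-0.74, adjusted p = 0.0148) and without WT replicate 2 (-0.58, 0.0341), and the smallest value was -0.27. Its share of the summed V-ATPase RPKM was 3.10% ± 0.489 (SD, n = 3) in Suz12 cKO and 4.17% ± 0.188 (n = 4) in WT.

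The d subunit of the V0 sector has a widespread form, Atp6v0d1, and a form typical of osteoclasts and some macrophages, Atp6v0d2, and the latter was the more abundant here. Atp6v0d2 (chromosome 4, 19876838 to 19922566) led the class at a mean of 468 RPKM, and was at 1063, 1055 and 1243 CPM for Suz12 cKO and at 1270.3, 1162, 1286 and 1121 CPM for WT. Its groups overlapped (log2 fold change -0.11, SE 0.09, adjusted p = 0.511). Atp6v0d1 was at 262, 232 and 292 CPM against 316, 321, 315 and 323 CPM, lower in each Suz12 cKO library (-0.28, SE 0.09, adjusted p = 0.0989) but not called. The ratio of their RPKM, Atp6v0d2 over Atp6v0d1, was 2.62, 2.93 and 2.75 in Suz12 cKO and 2.60, 2.34, 2.64 and 2.24 in WT, and the groups overlapped.

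Atp6v0b, the c-double-prime proteolipid of the V0 sector and second in level at 308 RPKM, was at 265, 303 and 327 CPM for Suz12 cKO and at 365, 295, 292 and 302 CPM for WT (log2 fold change -0.07, SE 0.11). The other 3 genes with separated ranges were lower by small amounts. Atp6v1d, the D subunit of the V1 rotor, was at 87.6 to 102 CPM against 105 to 122 CPM (-0.29, adjusted p = 0.0867). The accessory proteins Atp6ap1 and Atp6ap2, of which Atp6ap2 is also the prorenin receptor, were at 364 to 397 against 405 to 475 CPM (-0.20, 0.214) and at 239.6 to 268 against 275 to 289.6 CPM (-0.12, 0.417).

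The catalytic A subunit, Atp6v1a, and the B subunit, Atp6v1b2, which together form the ATP-splitting ring, were at -0.08 and 0.13 on the log2 scale, both with an SE of 0.09. The remaining genes had overlapping ranges: Atp6v0a1 (a form of the membrane a subunit) at -0.28, Atp6v1h at -0.17, Atp6v1f at -0.14, Atp6v0c (the proteolipid of the proton ring) at -0.09 and Atp6v1e1 (a stator subunit) at 0.00. Reads at Atp6v1b2 can be shared with the overlapping Slc18a1.

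Genes of the same organelle and its control that are not among the 49 were read in lists, and genes are named from the 4 called with the smallest p in each; Arsg, Abcb9, Slc66a1 and Lamtor2 fall outside that rule and are named after their values were seen. For every list below, the shares over all tested genes were 6.28% called higher and 4.02% called lower. Other V-ATPase subunits and assembly factors gave 16 tested genes of 21, with none called and a median log2 fold change of -0.11. An unadjusted p under 0.05 was found for 5 of those 16, against 24.5% of all tested genes. Of 36 other lysosomal hydrolases and processing enzymes, 2 were called higher and 3 lower (median -0.03). Napsa, an aspartic protease related to Ctsd, was at 140.3, 144 and 138 CPM for Suz12 cKO and at 72.4, 92.2, 80.9 and 79.3 CPM for WT (0.79, SE 0.10, adjusted p = 0.00218). Napsa is also a marker of alveolar type 2 cells, whose Sftpc was at 4.53, 9.08 and 0 CPM in those Suz12 cKO libraries and at 0, 10.6, 0 and 0.0412 CPM in the WT ones; the part of such cells in the Napsa level was not tested. Ppt2, a thioesterase, fell by 0.51 on the log2 scale (adjusted p = 0.00604) and Sumf1, which activates sulfatases, by 0.53 (0.00693). Arsg, a sulfatase, rose from 21.1 ± 6.40 (SD, n = 4) to 44.6 ± 7.38 CPM (n = 3; 1.08, adjusted p = 0.0198).

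Of 38 other lysosomal membrane genes, 4 were called higher and 2 lower (median -0.08), against 6.28% and 4.02% of all tested genes. The endolysosomal cation channels Tpcn1 and Tpcn2 both rose, Tpcn1 from 11.5 ± 3.79 (SD, n = 4) to 27.6 ± 3.78 CPM (n = 3; log2 fold change 1.26, adjusted p = 0.0144) and Tpcn2 from 32.9 ± 4.30 to 55.2 ± 3.91 CPM (0.74, 0.00654). Slc36a1, a proton-coupled amino acid transporter, rose by 0.72 (0.0371) and Abcb9, a lysosomal peptide transporter, by 2.15 (0.0408) from a low WT level of 1.04 ± 0.455 CPM. Ctns, the cystine exporter, was at 34.4, 35.2 and 34.1 CPM against 53.5, 55.8, 53.7 and 52.6 CPM, with little spread within either genotype (-0.64, adjusted p = 0.00244). Slc66a1, an exporter of basic amino acids, fell by 0.67 (0.0481).

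Among 12 genes that sort hydrolases to the lysosome, Igf2r, the large mannose 6-phosphate receptor and an imprinted gene, rose and Vps29, a retromer subunit, fell (median -0.14). Igf2r was at 31.1, 28.9 and 56.0 CPM for Suz12 cKO and at 8.79, 9.22, 13.1 and 7.38 CPM for WT (log2 fold change 2.0, adjusted p = 0.00308). Vps29 was at 66.9 to 79.1 against 93.6 to 131 CPM (-0.63, 0.0173).

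Among 22 genes of mTORC1 and its control of Tfeb, 3 were called higher and 2 lower (median -0.04). The shares over all tested genes were 6.28% and 4.02%. The Rag GTPases Rragb and Rragd, which dock mTORC1 on the lysosome, rose from low levels, Rragb from 1.18 ± 0.688 (SD, n = 4) to 6.08 ± 1.34 CPM (n = 3; log2 fold change 2.36, adjusted p = 0.0209) and Rragd from 2.07 ± 1.67 to 11.1 ± 3.48 CPM (2.41, 0.0336). Tsc1, an inhibitor of mTORC1, rose by 0.48 (0.0361). Tfec, the fourth factor of the Tfeb family and one restricted largely to macrophages, was at 92.3, 110.3 and 153 CPM against 190.1, 164, 227 and 194 CPM, lower in each Suz12 cKO library (-0.71, adjusted p = 0.0401). Lamtor2, a subunit of the Ragulator scaffold, fell by 0.45 (0.0468).

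In the 3 remaining lists few genes were called. Of 13 cathepsin inhibitors 9 were tested, and Serpinb1a, an inhibitor of neutrophil serine proteases, fell by 0.41 on the log2 scale (adjusted p = 0.038; median 0.19). Of 18 autophagy genes 1 was called, Tecpr1, an autophagosome-lysosome tethering factor, higher by 0.54 (0.0456; median -0.03). Of 12 osteoclast genes, a list that holds Ctsk and Atp6v0d2, 10 were tested and none called (median -0.15). Of those 10, 5 had an unadjusted p under 0.05, against 24.5% of all tested genes. Reads at Arsg, Igf2r, Ppt2, Slc66a1, Sumf1, Tpcn1, Tpcn2 and Vps29, named above, can be shared with overlapping annotated genes. Arsg had 14480 counts against 15525 of the overlapping Slc16a6, and Slc66a1 had 5832 against 9608 of Akr7a5. For the others the overlapping gene had fewer counts than the gene named. The part of shared reads in these differences was not tested.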

How the data were processed

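RNA was measured in sorted alveolar macrophages of 4 WT and 3 Suz12 cKO chimeric mice, grouped by the genotype label. The deposited values are whole read counts of genes, which the authors obtained using featureCounts on mm10, per the submitters' processing notes; the sources used here do not give aligner, annotation, strand setting or treatment of shared reads. Totals exceeded the stated reads per sample, for a reason not given there. Symbols and positions came by Entrez number from RefSeq's GRCm38.p6 (25275 of 27179 genes; the rest held 0.829% of counts; Hbb-bt was unmatched). edgeR 4.0.16 in R 4.3.3 (filterByExpr, minimum count 10, total 15; TMM; quasi-likelihood test, genotype as the sole term) tested 14436 genes with Benjamini-Hochberg adjustment; SE is the log2 fold change over the square root of F. RPKM is CPM over the deposited exon length in kilobases. DESeq2 1.42.0, other scalings and filters, left-out libraries, a replicate block and haemoglobin terms were the 16 alternatives. The fit was tested on simulated counts with planted differences larger than those of the called members. Calls of their size were thus not covered. No library was a copy of another of its genotype (r of log2 CPM across genes 0.966 to 0.989, chi-square per degree of freedom 45.0 to 233). Pairs across genotypes were not compared in this way. Members and lists were chosen with earlier results of these data known. Values per library are given for called members, the 2 highest of each class by RPKM, Tfeb, Tfe3, Mitf and the d subunits; members with separated ranges at least by range; and up to 4 called genes per other list, of which 1 is not reported here. Reads without molecular identifiers are not independent molecules, so depth gives counting error only.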

Additional observations from a re-analysis of the deposited data

Results flagged for a closer look

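In 5 members 1 of the 4 WT libraries stood apart from the other 3, by a gap that took up most of the group's range (Dixon's test at the 95% level); 50 genes (the members and Suz12) were examined, and chance alone would mark about 1 in 20. Gla was at 111 CPM for WT replicate 2, against 66.0 to 73.2 CPM in the other WT libraries. Ctse was at 1.89 CPM in the same library, against 0.0341 to 0.247 CPM. Asah1 was low in WT replicate 4, at 496 CPM against 614 to 636 CPM. Tfe3 was high in WT replicate 4, at 85.1 CPM against 65.0 to 66.2 CPM. Atp6v0b was high in WT replicate 1, at 365 CPM against 292 to 302 CPM. None of these 5 genes was called between the genotypes.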

How the results depend on the processing

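No member's call reversed under the 16 alternatives, and Suz12 was called in each (log2 fold change -2.15 to -1.30). Cathepsins called higher, 1 in the main analysis, became 4 with a haemoglobin term, 2 in the libraries low in haemoglobin RNA, 4 with DESeq2 and 0 to 2 with 1 library left out; those called lower, 0, became 1 with that term, 1 in the high libraries, 1 with DESeq2 and 0 to 2 with 1 left out. Hydrolases called higher, 2, became 0 with the replicate block, 0 in the low and 0 in the high libraries, and 0 to 2 with 1 left out. Hydrolases called lower, 1, became 0 with RLE scaling, library totals, no low-count filter, the replicate block, the haemoglobin term or the low libraries, 2 with DESeq2 and 0 to 2 with 1 left out. V-ATPase genes called lower, 0, became 1 with the haemoglobin term, 2 with DESeq2 and 0 to 1 with 1 left out; membrane proteins and regulators stayed at 0 in every alternative. Over all genes, those called higher numbered 906, 585 with the replicate block, 1457 with DESeq2 and 447 to 1515 with 1 library left out. Those called lower numbered 580, 278 with the block, 367 and 328 in the low and high libraries, and 268 to 885 with 1 left out. The cause of these changes was not tested. Ctse gave no value under the filter of 1 CPM in 3 libraries.

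The labels do not say that replicate numbers pair the mice. Deviations of same-numbered libraries correlated at -0.07, 0.29 and 0.25, and those of other pairs across genotypes at -0.35 to 0.18. Pairs alike in haemoglobin RNA, both high or both low, correlated at 0.15 to 0.29, and unlike pairs at -0.35 to -0.07. The same-numbered pairs at 0.29 and 0.25 were alike in it, and the pair at -0.07 was not. WT replicate 1 went best with Suz12 cKO replicate 3 (0.15), not with its own number. Whether the block matches a real pairing was not settled. The 4 called members rest on 3 Suz12 cKO libraries, of which 2 are high in haemoglobin RNA. Ctsa, Ctsh, Hexa, Gm2a and Atp6v0a1, all uncalled, were lower in every library high in haemoglobin RNA than in any low one. That was 5 of 49 members, against 5.94% of all tested genes. No member was higher in that way, against 8.60% of all tested genes. Psap was called in 3 of 16 alternatives, Ctsf in 12, Gaa in 11 and Smpd1 in 10. Ctse is limited by its low count.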
